A study of Mus musculus with 4 samples.

Results

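The messenger RNAs of 7 genes of alternative and classical macrophage activation were examined in bleomycin-treated mouse skin: Nos2, Retnla, Mgl2, Il4ra, Il13ra1, Tgm2 and Stat6. They were picked by gene symbol from a deposited table of 24441 genes, and all 7 symbols were found once. The study injected bleomycin (BLM), an anticancer drug that scars skin at the site of injection, into female C57BL/6 mice every other day until day 28, and sequenced RNA from the lesional skin. Of the 4 libraries, 2 came from wild type (WT) mice and 2 from GSDMD-/- (GSDMD KO) mice, labelled as 8 weeks old. The KO line was made by injecting Cas9 mRNA and guide RNA into C57BL/6 fertilised eggs, so the disrupted gene, which encodes the pore-forming protein that executes pyroptosis, is carried by every cell type and not by macrophages alone. All 4 libraries were from BLM-treated skin, and a saline-treated library was not analysed here. The comparison therefore asks how the genotype differs within treated skin.

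Macrophages take on different programmes with the signals around them. The cytokines IL-4 and IL-13 act through receptors that contain the chain encoded by Il4ra, and the second chain encoded by Il13ra1 makes the receptor responsive to IL-13 in cells outside the blood lineage as well. The receptors activate the transcription factor STAT6, which drives alternative activation genes such as Retnla and Mgl2 in the mouse. Interferon gamma and microbial products drive classical activation, whose best known mouse product is the inducible nitric oxide synthase encoded by Nos2. Not all of the 7 genes are confined to macrophages: Tgm2 is expressed by endothelial cells and fibroblasts, and Retnla by cells of adipose tissue.

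Values were FPKM, the fragments of a gene divided by the length of its transcript and by the depth of the library. The libraries summed to between 448544 and 462251 FPKM. Gsdmd itself had 14.0 and 18.2 FPKM in WT skin, against 3.53 and 2.26 FPKM in the KO pair, so its RNA was lower but still present in the KO libraries. Both KO libraries stood apart in their tissue markers. KO replicate 2 was the lowest library for 10 of 10 macrophage, 7 of 7 fibroblast, 6 of 6 endothelial and 6 of 6 adipocyte markers, and it alone held RNA of 4 Y-linked genes, with a sum of 1.78 FPKM, although the mice are described as female. KO replicate 1 was the highest library for 9 of 10 hair follicle markers. Keratinocyte markers, which define skin, had a summed level of 2855 to 8009 FPKM. Skeletal muscle markers were also abundant, with summed levels of 19954 and 18908 FPKM in WT skin, against 12235 and 12493 FPKM in the KO pair. Results that 1 KO library decides are given with and without it.

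**Figure D1:**
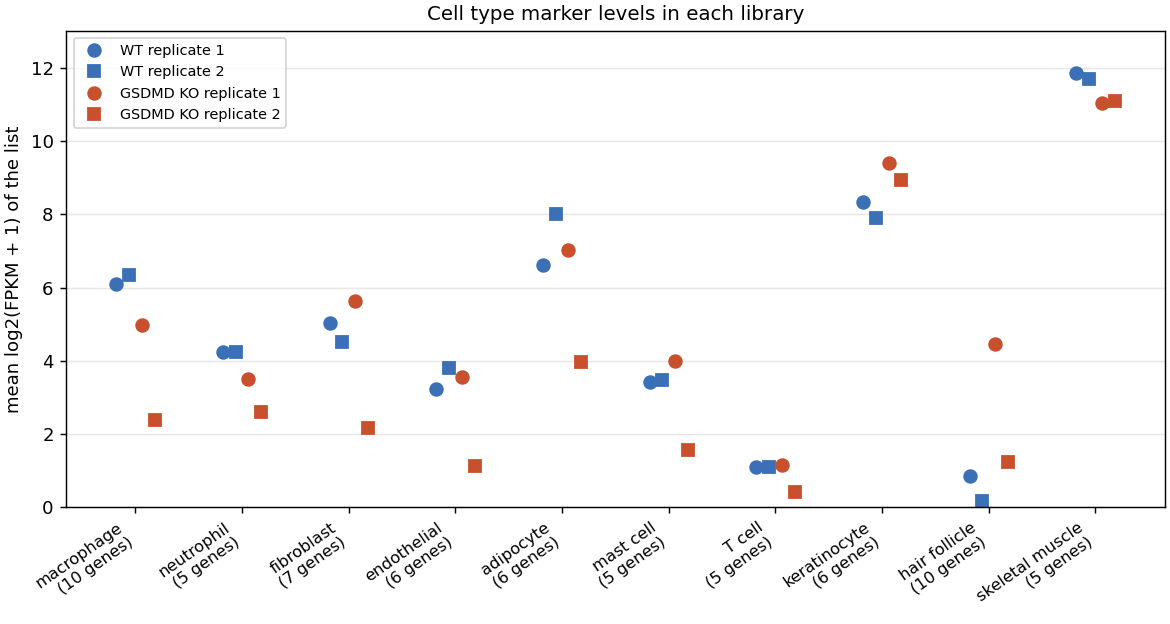
Mean log2(FPKM + 1) of each cell type marker list (vertical axis) in the 4 libraries, blue for WT and red for GSDMD KO, circles for replicate 1 and squares for replicate 2. Macrophage markers stood at 6.09 and 6.35 in WT and at 4.97 and 2.38 in KO replicates 1 and 2, and KO replicate 2 was also low for fibroblast, endothelial, adipocyte and mast cell markers.

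Across the 7 genes, Retnla, Nos2, Mgl2 and Tgm2 had lower values in both GSDMD KO libraries than in both WT libraries, Il13ra1 and Stat6 had higher values in both, and Il4ra overlapped between the groups. Fold changes are differences of log2(FPKM + 1), a scale that shrinks the change of low genes, and were tested with limma over the 13027 genes that had at least 1 FPKM in at least 2 libraries. All 7 genes passed this filter, but Nos2 passed it through the WT libraries alone. The call rule was an adjusted p under 0.05 with an absolute log2 fold change above 1, by which 0% of all genes tested and 0 of the 7 genes were called. Without KO replicate 2 the rule called 0.33% of all genes tested and again 0 of the 7, and without KO replicate 1 it called 15.8% of all genes and 2 of the 7, Retnla and Tgm2. The adjusted p-values of the 7 genes ran from 0.248 to 0.799 by limma with Benjamini-Hochberg adjustment. With the unadjusted p under 0.05, only Nos2 was lower, as were 6.22% of all genes tested, and none of the 7 was higher, against 10.9% of all genes. The KO pair lay wholly below the WT pair for 20.5% of all genes tested, the order shown by 4 of the 7 genes, and above them for 35.3%, the order shown by 2 of the 7. Taken alone, KO replicate 1 was below both WT libraries in 4 of the 7 genes and in 26.6% of all genes, and KO replicate 2 in 5 of the 7 genes and in 37% of all genes. The median log2 fold change of the 7 genes was -0.76, against 0.11 for all genes tested, and it was -0.34 without KO replicate 2. For any gene taken singly, 2 libraries against 2 allow an exact permutation p of no less than 0.333. The p-values measure the spread between these libraries, since the labels do not tie each library to a named animal. In bulk tissue, fewer cells of a type and less RNA per cell cannot be told apart.

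**Figure D2:**
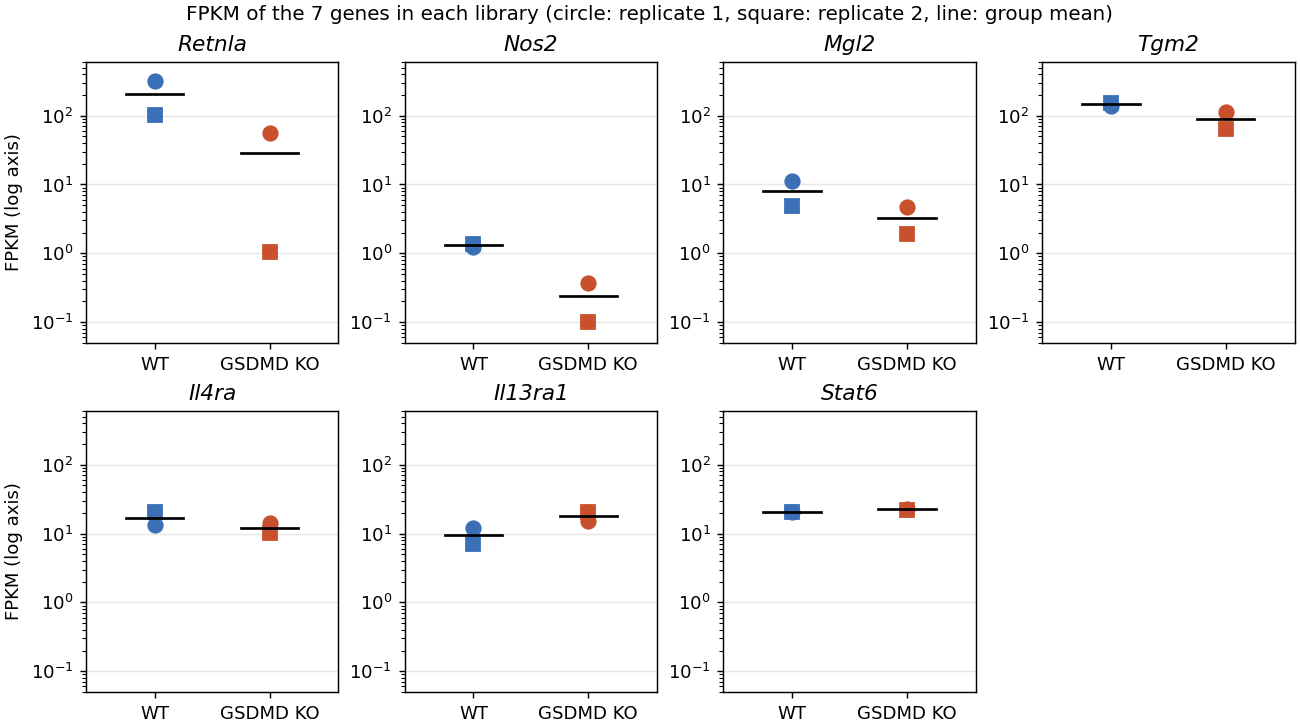
FPKM (vertical log axis) of each of the 7 genes in each library, WT in blue and GSDMD KO in red, with circles for replicate 1, squares for replicate 2 and black lines for group means. Retnla spanned 314 to 1.05 FPKM, whereas Stat6 stayed between 20.6 and 22.9 FPKM in the 4 libraries.

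Retnla encodes RELM-alpha, also called FIZZ1, a small secreted protein of the resistin family that marks alternatively activated mouse macrophages. It lies on chromosome 16 of mm9 from 48842665 to 48844574 on the plus strand, with 4 exons. Of the 7 genes it had the widest range. The stretch of 250 bases before its start, at chr16:48842359-48842608 on the plus strand of GRCm38.p6, is shown with that of Mgl2, at chr11:70130107-70130356 on the plus strand of the same build, because STAT6 and C/EBP factors are known to act on the Retnla promoter. Both sequences are from RefSeq, and capitals mark the motif matches.
Retnla: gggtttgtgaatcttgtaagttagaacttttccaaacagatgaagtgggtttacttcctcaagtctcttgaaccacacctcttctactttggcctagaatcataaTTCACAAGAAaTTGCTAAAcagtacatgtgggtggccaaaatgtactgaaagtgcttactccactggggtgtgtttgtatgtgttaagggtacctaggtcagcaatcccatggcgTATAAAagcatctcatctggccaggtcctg
Mgl2: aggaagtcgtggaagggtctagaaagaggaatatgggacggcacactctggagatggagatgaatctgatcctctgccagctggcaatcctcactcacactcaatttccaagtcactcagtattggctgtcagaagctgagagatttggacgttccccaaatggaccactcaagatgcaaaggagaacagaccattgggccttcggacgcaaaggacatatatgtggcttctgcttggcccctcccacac
In Retnla, a STAT6-type match, TTC and GAA separated by 4 bases, lay 145 to 136 bases before the start, a C/EBP-type match to TTGCNNAA lay 134 to 127 bases before it, and TATAAA lay 30 to 25 bases before it. The 3 matches do not overlap. On either strand, the STAT6-type motif is present in 5.85% and TTGCNNAA in 9.56% of 32851 RefSeq promoter windows of this length, and TATAAA on the gene's own strand in 7.59%. The spaced motif TTCNNNGAA, the gamma-activated site, is present in 7.02% of windows on either strand. Promoter windows of 5 of the 7 genes were found, those of Retnla, Mgl2, Il4ra, Il13ra1 and Stat6, and only the Retnla window held any of these motifs. These matches describe letters in a window, and no binding was measured.

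Retnla had 314 and 101 FPKM in the first and second WT library, against 56.8 and 1.05 FPKM in the first and second KO library. WT replicate 1 was 3.11 times WT replicate 2, and KO replicate 1 was 54.3 times KO replicate 2, where the value corresponds to an estimated 8.00 fragments. The mean was 207 ± 151 FPKM for WT against 28.9 ± 39.5 FPKM for GSDMD KO (SD, n = 2 each), and the log2 fold change was -4.04 (SE 1.61; limma adjusted p = 0.294). Without KO replicate 2 the log2 fold change was -1.63. Without KO replicate 1 it was -6.45 (adjusted p = 0.00119 by limma), in a fit that assumes the lone KO library to vary like the WT libraries and that called 15.8% of all genes tested. Adipocyte markers were also lowest in KO replicate 2, but did not follow Retnla in the other libraries, with summed levels of 1896 and 5054 FPKM in WT skin, against 2397 FPKM in KO replicate 1 and 258 FPKM in KO replicate 2, and none of the 6 was at 0. Their part in the Retnla values was not tested. Retn, the resistin gene, which mouse adipocytes express, had 369, 1090, 310 and 15.5 FPKM in the same order of libraries. Retnlg, a family member expressed in myeloid cells, had 5.36 and 7.30 FPKM in WT skin, against 1.88 and 2.24 FPKM in the KO pair, with a log2 fold change of -1.25 (SE 0.27; limma adjusted p = 0.248). Thus Retn was low in KO replicate 2 as Retnla was, whereas Retnlg was at a similar level in both KO libraries. Retnlb was too low to test, at no more than 0.302 FPKM.

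Nos2 encodes the inducible nitric oxide synthase, which makes nitric oxide from arginine. It lies on chromosome 11 of mm9 from 78734289 to 78773728 on the plus strand, with 27 exons. Nos2 was the lowest of the 7 genes in every library, with 1.25 and 1.35 FPKM in the first and second WT library, against 0.373 and 0.1005 FPKM in the first and second KO library. These values correspond to an estimated 91.6 and 80.7 fragments in WT and 21.5 and 5.38 fragments in KO. The WT libraries were close to each other and well above the KO libraries. The mean was 1.30 ± 0.0644 FPKM for WT against 0.237 ± 0.192 FPKM for GSDMD KO (SD, n = 2 each), 5.49 times higher in WT. On the log2(FPKM + 1) scale the fold change was only -0.90 (SE 0.25; limma adjusted p = 0.248), and with a pseudocount of 0.1 in place of 1 it was -2.18. Without KO replicate 2 it was -0.74, and with KO replicate 2 as the lone KO library -1.06.

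Mgl2 encodes a galactose-type C-type lectin, CD301b, found on alternatively activated macrophages and a subset of dermal dendritic cells. It lies on chromosome 11 of mm9 from 69943859 to 69951044 on the plus strand, and its longest transcript has 9 exons. Mgl2 had 11.2 and 4.87 FPKM in the first and second WT library, against 4.74 and 1.88 FPKM in the first and second KO library. WT replicate 2 and KO replicate 1 were nearly level, and the separation of the groups rests on that narrow gap. The log2 fold change was -1.06 (SE 0.51; limma adjusted p = 0.343), -0.56 without KO replicate 2, -1.56 without KO replicate 1, and -0.53 without WT replicate 1. Clec10a, which encodes the closely related lectin CD301a, had 16.2 and 19.8 FPKM in WT skin, against 18.5 and 3.05 FPKM in the KO pair. Clec10a was therefore as high in KO replicate 1 as in WT, and low in KO replicate 2 alone. The pair are similar in sequence, and the authors' counting could have divided shared fragments between them.

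Tgm2 encodes tissue transglutaminase, an enzyme that cross-links proteins, including those of the extracellular matrix, and that IL-4 raises in macrophages. It lies on chromosome 2 of mm9 from 157942141 to 157972128 on the minus strand. Tgm2 was abundant in every library, with 138 and 153 FPKM in the first and second WT library, against 115 and 63.8 FPKM in the first and second KO library. The WT libraries lay close together, KO replicate 1 a little below them and KO replicate 2 further below. The mean was 146 ± 10.4 FPKM for WT against 89.2 ± 35.9 FPKM for GSDMD KO (SD, n = 2 each). The log2 fold change was -0.76 (SE 0.35; limma adjusted p = 0.329). Leaving out KO replicate 2 gave -0.34, and leaving out KO replicate 1 gave -1.18 (adjusted p = 0.0444 by limma, in the same fit that called 15.8% of all genes). Endothelial markers had summed levels of 66.5 and 98.9 FPKM in WT skin, against 88.8 FPKM in KO replicate 1 and 8.64 FPKM in KO replicate 2. Fibroblast markers had summed levels of 324 and 231 FPKM in WT skin, against 511 FPKM in KO replicate 1 and 31.5 FPKM in KO replicate 2. None of these 13 markers was at 0, and their part in the Tgm2 values was not tested. Exons of Tgm2 overlap Rprd1b and a further annotated transcript on the opposite strand, and strand use in the counting is not given in the sources used here.

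Among the other transglutaminases, Tgm5, an enzyme of the upper epidermis, had 4.07 and 2.63 FPKM in WT skin, against 6.82 and 21.4 FPKM in the KO pair, a log2 fold change of 1.63 (SE 0.55; limma adjusted p = 0.264), or 0.87 without KO replicate 2. F13a1, which encodes the coagulation factor XIII subunit carried by dermal macrophages, had 15.4 and 13.6 FPKM in WT skin, against 15.4 and 1.42 FPKM in the KO pair. It was thus at the WT level in KO replicate 1. Tgm1 and Tgm3, enzymes of the cornified envelope, had log2 fold changes of 0.27 and 0.10, which turned to -0.55 and -0.47 without KO replicate 1, and Tgm4 one of 0.35, or 0.20 without KO replicate 2. Of the 7 genes of this family 5 were tested, 0 were called, 1 had a negative and 4 a positive log2 fold change, and the median was 0.27. The median turned to -0.47 without KO replicate 1 and to -0.01 without WT replicate 2. Tgm6 and Tgm7 were too low to test.

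Il4ra encodes the receptor chain shared by the IL-4 and IL-13 receptors, and lies on chromosome 7 of mm9 from 132695796 to 132722988 on the plus strand. Il4ra had 13.1 and 20.6 FPKM in the first and second WT library, against 14.0 and 10.02 FPKM in the first and second KO library. The groups overlapped, since KO replicate 1 lay between the WT libraries. The log2 fold change was -0.44 (SE 0.33; limma adjusted p = 0.485), and it ran from -0.75 without WT replicate 1 to -0.13 without WT replicate 2, with -0.67 and -0.22 when KO replicate 1 or KO replicate 2 was left out. Il13ra1 encodes the chain that binds IL-13 and pairs with the product of Il4ra, and lies on chromosome X of mm9 from 33652103 to 33711256 on the plus strand. Il13ra1 had 12.1 and 6.95 FPKM in the first and second WT library, against 15.2 and 20.8 FPKM in the first and second KO library. Both KO libraries were above both WT libraries, with a mean of 17.99 ± 3.91 FPKM for GSDMD KO against 9.54 ± 3.65 FPKM for WT (SD, n = 2 each). The log2 fold change was 0.88 (SE 0.34; limma adjusted p = 0.292). It was 0.52 without WT replicate 2. The ratio of Il4ra to Il13ra1, both in FPKM, was 1.08 and 2.97 in WT and 0.922 and 0.483 in KO replicates 1 and 2. Il4ra RNA thus exceeded Il13ra1 RNA in both WT libraries and was below it in both KO libraries. The genes were nearly level in WT replicate 1 and in KO replicate 1, so this order rests on narrow gaps.

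Stat6, the transcription factor that these receptors activate, lies on chromosome 10 of mm9 from 127080042 to 127098043 on the plus strand. Stat6 had 20.6 and 20.8 FPKM in the first and second WT library, against 22.9 and 22.0 FPKM in the first and second KO library. It was the steadiest of the 7 genes, with KO means 1.08 times WT means. Its log2 fold change of 0.11 (SE 0.22; limma adjusted p = 0.799) equalled the median of all genes tested to 2 decimals, and it turned to -0.02 with median-ratio size factors, which moved the median of all genes from 0.11 to -0.01. STAT6 is switched on by phosphorylation, which RNA does not measure. An exon of Stat6 overlaps Nab2 on the opposite strand. Of the other STAT genes, 4 of 5 were tested, 0 were called and 4 had negative log2 fold changes, with a median of -0.30. In 3 of these 4, Stat2, Stat5a and Stat5b, the KO pair lay wholly below the WT pair, an order shown by 20.5% of all genes tested. KO replicate 1 was close to the lower WT library in each of them. Stat3 had 41.4 and 48.7 FPKM in WT skin, against 44.5 and 38.5 FPKM in the KO pair, with overlap between the groups.

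**Figure D3:**
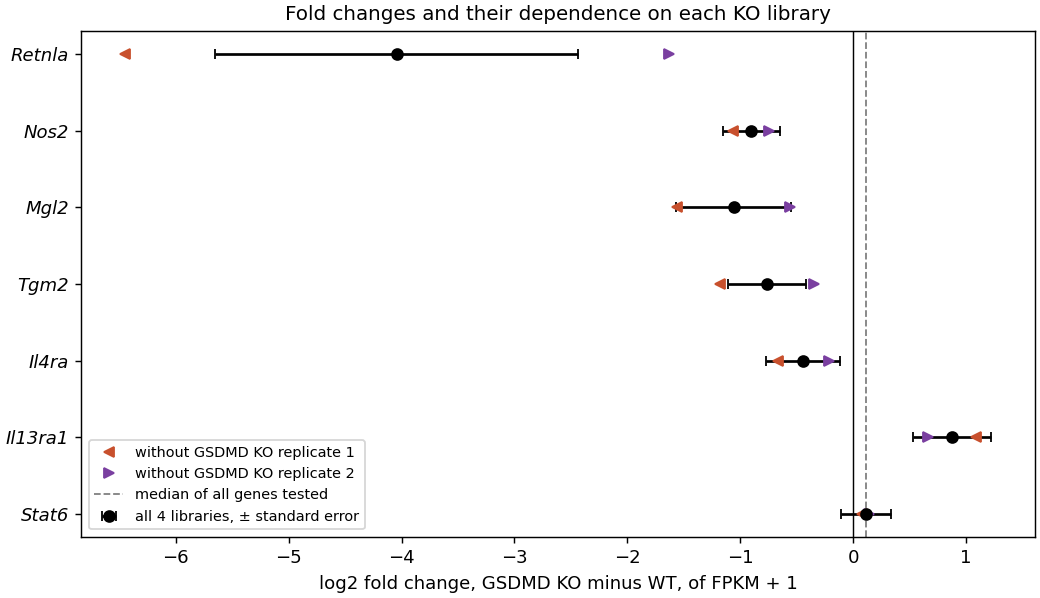
Log2 fold change of FPKM + 1, GSDMD KO minus WT (horizontal axis), for each of the 7 genes, as black points with the standard error over 4 libraries, and as triangles when a KO library is left out. Retnla moved from -4.04 to -6.45 without KO replicate 1 and to -1.63 without KO replicate 2, while Stat6 stayed at the dashed line, the median of all genes tested.

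By level per transcript length, Tgm2 was the highest of the 7 genes in 3 libraries and Retnla in WT replicate 1. Retnla was the second highest in WT replicate 2 and KO replicate 1, and ranked 6 of 7 in KO replicate 2. Stat6, Il4ra and Il13ra1 took consecutive places in the order of every library, with Stat6 the highest of them. In WT skin the neighbours Stat6 (20.6 and 20.8 FPKM) and Il4ra (13.1 and 20.6 FPKM) nearly met, and the gap between their means was smaller than the SD of Il4ra. In KO skin Il13ra1 stood above Il4ra, by a narrow gap in KO replicate 1.

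The macrophage markers had lower values in both KO libraries: in 10 of the 10 the groups did not overlap, an order shown by 20.5% of all genes tested, and 0 of the 10 were called. Cd68 and Csf1r among them were singled out by the study in these libraries, so the count is not independent evidence. Their summed level was 2101 and 2128 FPKM in WT skin, against 863 FPKM in KO replicate 1 and 91.1 FPKM in KO replicate 2, and none was at 0. Relative to the mean log2 level of these markers in the same library, Retnla stood at 2.21 and 0.32 in WT and at 0.88 and -1.34 in KO replicates 1 and 2. Nos2 is left out here, since at its low levels the pseudocount sets this value. Of the other 6 genes, only Retnla had a lower mean relative level in GSDMD KO than in WT libraries, by -1.497 on the log2 scale, with an SD of 1.33 in WT and 1.57 in KO, and the groups overlapped. With KO replicate 1 as the lone KO library the difference was -0.39, and with KO replicate 2 as the lone KO library -2.61. The pseudocount also weighs on the Retnla values that include KO replicate 2, where Retnla had 1.05 FPKM. In that library the markers Adgre1, Itgam and Fcgr1 had 0.837, 0.550 and 0.644 FPKM. For Tgm2, Il4ra, Il13ra1 and Stat6 the differences ran from 1.78 to 3.42, from 0.90 to 1.91 with KO replicate 1 as the lone KO library, and from 2.67 to 4.93 with KO replicate 2 as the lone KO library. On this relative scale both KO values exceeded both WT values in each of these 4 genes. The subtracted marker mean was 6.09 and 6.35 in WT and 4.97 and 2.38 in KO replicates 1 and 2. A gene that fell less than the markers therefore rises on this scale, as did Stat6 with a log2 fold change of 0.11. Mgl2 had a difference of 1.49, or 0.69 with KO replicate 1 alone and 2.29 with KO replicate 2 alone, but KO replicate 1 and WT replicate 1 were level, at -2.45 and -2.48. These relative levels are a description, and the part of the macrophage markers in the values of the 7 genes was not tested. Eosinophil markers, a population that could also respond to IL-4, summed to at most 0.455 FPKM, and Epx, which encodes eosinophil peroxidase, was listed at 0 in all 4 libraries.

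The genes with the most similar pattern were those with the smallest distance between log2(FPKM + 1) values, centred on their mean, over the 4 libraries. For Nos2 they were Egf, Nfkbie and Tlr6, at distances of 0.02, 0.04 and 0.04. At the low levels of Nos2 the pseudocount shrinks its changes, so these small distances do not mean like fold changes. Egf had 13.2 and 13.8 FPKM in WT skin, against 7.76 and 5.90 FPKM in the KO pair, a smaller proportional change than that of Nos2. For Mgl2 the nearest genes were Cd200r4, Ifit1 and Itgax, at 0.06, 0.15 and 0.18. Il4ra was nearest to Tmem205, Bvht and Slc8b1, Il13ra1 to Kif2c, Snx16 and Atad2b, Tgm2 to Dennd5a, Slc35e4 and Spsb1, and Stat6 to Ap3s1, Spata5l1 and Atg4d, all within 0.07. Retnla had no such close neighbour: the nearest genes to Retnla were Fn1, Ctss and Eif3j1 at 1.52 to 1.602. The closest pair among the 7 genes was Nos2 and Tgm2, 0.40 apart, and the farthest was Retnla and Il13ra1, 6.19 apart. The closeness of Nos2 and Tgm2 depends on the pseudocount. Their log2 fold changes were -0.90 and -0.76 with a pseudocount of 1, and -2.18 and -0.77 with 0.1. With 4 libraries many genes share a pattern, so these distances carry no test.

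Of 12 other genes of IL-4 and IL-13 signalling, 10 were tested and 0 were called, with 4 negative and 6 positive log2 fold changes and a median of 0.09, which turned to -0.03 with median-ratio size factors and to -0.04 without KO replicate 2. The ligands were at the limit of detection: Il4 had 0.320 and 0.172 FPKM in WT and was listed at 0 and at 0.206 FPKM in KO libraries, and Il13 had 0.221 and 0.0658 FPKM in WT and 0.419 FPKM and 0 in KO libraries. For a transcript of 1 kb, 3 fragments would stand at 0.172 to 0.235 FPKM, so a fall or a small rise in either ligand was not detectable at this depth. Il13ra2, which encodes a decoy receptor for IL-13, had 0.456 and 0.485 FPKM in WT skin, against 1.45 and 6.35 FPKM in the KO pair. It passed the filter on low values through the KO libraries alone, and its log2 fold change was 1.53 (SE 0.55; limma adjusted p = 0.276), or 0.74 without KO replicate 2. Il2rg, which encodes the common gamma chain of the receptor for IL-4 on blood cells, had 18.9 and 22.0 FPKM in WT skin, against 9.19 and 3.07 FPKM in the KO pair. Its log2 fold change was -1.73 (SE 0.48; limma adjusted p = 0.248), or -1.07 without KO replicate 2. The kinases Jak1 and Tyk2, which carry the receptor signal, had log2 fold changes of -0.13 and 0.05, which were -0.01 and -0.04 without KO replicate 2, and Socs1 and Cish, feedback inhibitors of cytokine signalling, had 0.12 and 0.29, which turned to -0.15 and -0.05 without KO replicate 2. The groups overlapped in each of these 4 genes.

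Of 14 other alternative activation genes 11 were tested and 0 were called. Their median log2 fold change was -0.95, with 9 negative and 2 positive values, which came to -0.24 without KO replicate 2 and to -1.62 when KO replicate 1 was left out. Ccl17 of this list was named by the study as lower in these libraries, so the median and signs are not independent evidence. Chil3, which encodes the chitinase-like protein Ym1, had 17.1 and 18.4 FPKM in WT skin, against 4.24 and 0.892 FPKM in the KO pair, a log2 fold change of -2.57 (SE 0.51; limma adjusted p = 0.248). Fragments of Chil3 could have been shared with its close relative Chil4, which was too low to test. Ccl24, which encodes an eosinophil-attracting chemokine, had 5.89 and 1.52 FPKM in WT skin, against 0.835 and 0.277 FPKM in the KO pair. Ccl24 passed the filter through the WT libraries alone. Mrc1, the mannose receptor CD206, had 14.7 and 12.6 FPKM in WT skin, against 12.7 and 1.23 FPKM in the KO pair, and Cd163, a haemoglobin scavenger receptor, had 2.02, 2.93, 4.14 and 0.379 FPKM in the same order. Both genes were at or above the lower WT value in KO replicate 1, so their lower KO means came from KO replicate 2. The transcription factors Egr2 and Klf4 went the other way. Egr2 had 10.99 and 6.18 FPKM in WT skin, against 18.7 and 36.9 FPKM in the KO pair, with a log2 fold change of 1.56 (SE 0.44; limma adjusted p = 0.248). Klf4, which keratinocytes also express, had 41.2 and 23.9 FPKM in WT skin, against 63.0 and 58.0 FPKM in the KO pair, and the 6 keratinocyte markers had higher summed levels in the same libraries, 3615 and 2855 FPKM in WT skin, against 8009 FPKM in KO replicate 1 and 5673 FPKM in KO replicate 2. Krt5 and Krt14 carried most of this sum, while Krt1 and Krt10 were lower in KO replicate 2 than in both WT libraries. None of the 6 was at 0, and their part in the Klf4 values was not tested.

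Of 19 other classical activation genes 15 were tested and 0 were called. Their median log2 fold change was -0.75, with 14 negative values and 1 positive value, which came to -0.67 without KO replicate 2 and to -0.85 when KO replicate 1 was left out. The KO pair was wholly below the WT pair in 10 of the 15, against 20.5% of all genes tested, and 8 of the 15 had an unadjusted p under 0.05 and a lower value, against 6.22% of all genes. Of these genes, Cd80, Fpr2 and Ptgs2 passed the filter on low values through the WT libraries alone, and Il1b was picked by the study on these libraries, so the counts are a description and not independent evidence. Neutrophil markers had summed levels of 758 and 619 FPKM in WT skin, against 307 FPKM in KO replicate 1 and 149 FPKM in KO replicate 2. S100a8 and S100a9 carried most of these sums. Of the 5 neutrophil markers 4 were tested and 0 were called. The 4 had negative log2 fold changes, with a median of -1.64, or -1.09 without KO replicate 2. Cxcr2 overlapped between the groups, with 1.73 and 1.92 FPKM in WT skin, against 1.76 and 0.590 FPKM in the KO pair. Ly6g was too low to test, at 0.238 and 0.0928 FPKM in WT skin and listed at 0 in both KO libraries. The part of the neutrophil markers in the values of the classical activation genes was not tested. Cd80 and Cd86, costimulatory ligands for T cells, had log2 fold changes of -1.49 (SE 0.24; limma adjusted p = 0.248) and -1.04 (SE 0.32; limma adjusted p = 0.254). Cd80 had 3.76 and 3.98 FPKM in WT skin, against 0.873 and 0.594 FPKM in the KO pair. Fpr2, a formyl peptide receptor of myeloid cells, had 4.54 and 9.89 FPKM in WT skin, against 0.893 and 0.413 FPKM in the KO pair. Irf5, a transcription factor of classical activation, had 27.0 and 26.4 FPKM in WT skin, against 15.5 and 9.38 FPKM in the KO pair. Ptgs2, which encodes cyclooxygenase 2, had 1.41 and 1.05 FPKM in WT skin, against 0.394 and 0.255 FPKM in the KO pair. The interferon-induced chemokine gene Cxcl10 showed no such separation, with 19.5 and 13 FPKM in WT skin, against 9.12 and 21.9 FPKM in the KO pair. Ifng itself was listed at 0 in 3 libraries and at 0.139 FPKM in KO replicate 1. The receptor gene Ifngr1 had a log2 fold change of -0.58, or -0.31 without KO replicate 2, and Ifngr2 one of 0.06, or 0.02 when the same library was left out.

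Of 16 other genes of arginine and nitric oxide metabolism 15 were tested and 0 were called, with 10 negative and 5 positive log2 fold changes and a median of -0.13. This median was -0.01 without KO replicate 2 and -0.34 with KO replicate 1 left out. Odc1, which encodes the ornithine decarboxylase that turns ornithine into putrescine, had 58.8 and 73.7 FPKM in WT skin, against 42.5 and 38.7 FPKM in the KO pair. Its log2 fold change was -0.68 (SE 0.25; limma adjusted p = 0.276). The arginine transporter gene Slc7a2 had 5.39 and 4.23 FPKM in WT skin, against 3.55 and 2.82 FPKM in the KO pair. Srm, which encodes spermidine synthase, had 21.2 and 25.8 FPKM in WT skin, against 29.8 and 40.0 FPKM in the KO pair. The other nitric oxide synthases were both higher per transcript length than Nos2 in every library. Nos1, the neuronal form that muscle also expresses, had 4.65 and 4.20 FPKM in WT skin, against 3.61 and 1.5 FPKM in the KO pair, and Nos3, the endothelial form, had 4.86, 11.7, 6.86 and 0.980 FPKM in the same order. Nos3 was thus low in KO replicate 2 alone. Endothelial markers, with the summed levels given for Tgm2, were also lowest in that library, and their part in the Nos3 values was not tested. Skeletal muscle markers, with the summed levels given above, were lower in both KO libraries, and their part in the Nos1 values was not tested. Gch1, Spr and Pts, which make the cofactor of these synthases, had log2 fold changes of -0.13, -0.04 and 0.33, or 0.08, 0.01 and 0.17 without KO replicate 2.

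**Figure D4:**
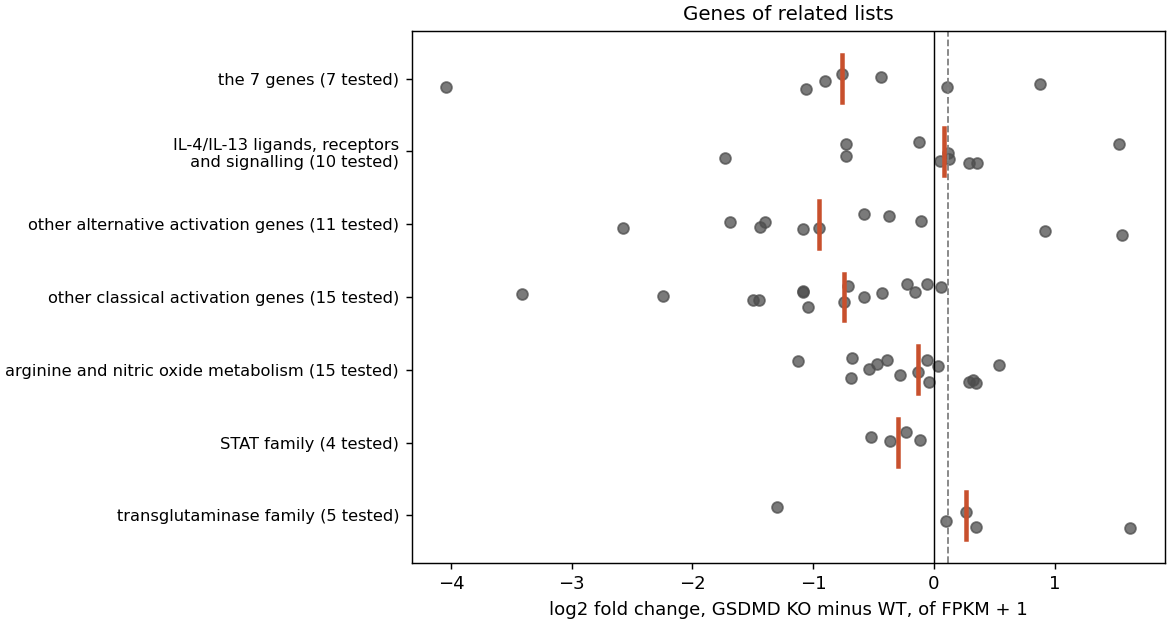
Log2 fold change of FPKM + 1, GSDMD KO minus WT (horizontal axis), of each tested gene (dots) in the 7 genes and in related gene lists, with list medians as red bars and the median of all genes tested as a dashed line. The resistin family, with 2 genes tested, is not drawn. Among the lists drawn the medians run from -0.95 for the other alternative activation genes to 0.27 for the transglutaminase family, and single genes of every list drawn but that of the STAT genes lie on both sides of 0.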

How the data were processed

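Skin RNA libraries, 2 labelled WT and 2 labelled GSDMD KO, were analysed from 1 deposited table. For the authors' alignment to mm9, HISAT2 version 2.0.1 was used, and the authors describe counting reads per gene, and the submitters' processing notes also name StringTie version 2.0.6. The deposited values, although named as counts, were read as FPKM, because 99.993% of values above 0 are not whole. Of 20310 genes found by symbol in the GENCODE annotation of mm9, 99.2% overlapped the annotated gene. Depth is not in the table. The worth of 1 fragment on 1 kb, 0.0574 to 0.0783 FPKM, was estimated from the steps of low values in 2710 single-transcript genes of 2000 bases or more, so fragment numbers are approximate.

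Values were transformed to log2(FPKM + 1), filtered and fitted by limma (version 3.58.1; R version 4.3.3). The model held genotype alone, with a mean-variance trend and Benjamini-Hochberg adjustment over 13027 genes. The study's thresholds for adjusted p and fold change were kept. The study applied them to a DESeq2 fit and reported differentially expressed genes, so the calls here do not stand for those of the study. The limma fit was tested on simulated data. Because the table holds no counts, a count model was not used. The members and gene lists were chosen with earlier results of these data known, and some genes of these sets are not reported here. Genes named are the 7 members, Gsdmd, genes of the lists and the 3 nearest genes of each member. C/EBP-type and TATA motifs were added after the sequences had been seen. Alternatives were other scalings, pseudocounts and filters, no trend, the replicate number as a block, and leaving out each library. Other steps used Python version 3.11.15 with pandas version 2.3.3.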

Additional observations from a re-analysis of the deposited data

How the results depend on the processing

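The direction of Retnla, Nos2, Mgl2, Tgm2, Il4ra and Il13ra1 held in every alternative that was run. The log2 fold change of Stat6 turned to -0.043 with upper-quartile scaling and to -0.021 with median-ratio size factors, and both scalings moved the median of all genes by over 0.1. Over the fits that left out 1 library, the log2 fold change ran from -6.45 to -1.63 for Retnla and from -1.18 to -0.34 for Tgm2. Each passed the threshold in 1 of these fits, as given above. Over the same fits, 0 to 2058 genes were called by limma, with 2058 without KO replicate 1 and 43 without KO replicate 2. Genes with an unadjusted p under 0.05 numbered 253 to 2048 lower and 281 to 2143 higher, against 810 and 1420 with all libraries. With a filter of 5 FPKM on the mean they numbered 526 lower and 892 higher, as fewer genes were tested. The median log2 fold change of the 7 genes ran from -1.06 to -0.34 when 1 library was left out. The split of the same genes was 1173 lower to 1002 higher with upper-quartile scaling and 1124 to 1112 with median-ratio size factors. The replicate numbers are shared by the groups, but same-numbered libraries did not deviate together (correlation -0.20 over 13027 genes). With the replicate number as a block 0 genes were called by limma and 832 were lower and 1167 higher at an unadjusted p under 0.05. With the numbers crossed, a pairing chosen after the data were seen, 0 genes were called and 1147 were lower and 1905 higher. Nos2 could not be tested with the filter of 5 FPKM. Depth limited Il4, Il13 and Ifng, which were near the worth of single fragments.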
